A study of Mus musculus with 20 samples.

Results

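Scgb2b4-ps and Scgb2b7 are 2 mouse secretoglobin genes whose transcripts were more abundant in the ventral prostate with testosterone than with vehicle, and with testosterone were several-fold less abundant in ARNoC/Y males than in wild-type (WT) males. They were taken by their symbols, 2 of the 69 symbols beginning with Scgb among 43472 counted genes, and were chosen by the size of their testosterone response in each genotype. Every comparison among the 4 groups was thus used in the choice, so levels, ratios and differences of both genes are given as descriptions without a test. The remaining 67 Scgb symbols serve as family background.

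The 4 groups, of 5 libraries each, were ARNoC/Y males with testosterone, ARNoC/Y males with vehicle, WT (C57BL/6J) males with testosterone and WT males with vehicle. All had been orchidectomised, that is, deprived of their testes, and then received testosterone or vehicle for 4 days, so no group had an intact gonad. ARNoC/Y is the notation for a male with the ARNoC allele on its single X chromosome; the labels name the allele without describing it, counts per gene give no check of it, and neither age nor the strain background of these males is given. Total RNA from snap-frozen ventral prostates was made into Illumina TruSeq libraries. No label states that each library came from a different animal, so the spread between libraries may in part be technical.

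Secretoglobins are small secreted proteins with a largely helical fold, many of which pair into disulfide-linked dimers. In the mouse, genes named Scgb1b encode alpha subunits and genes named Scgb2b encode beta or gamma subunits of androgen-binding proteins, which are secreted in saliva and tears and have been studied in mate recognition. The ventral prostate is a secretory gland whose epithelium regresses without androgen and resumes secretion when testosterone is given back.

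Both genes lie on the minus strand of chromosome 7, 300603 bases apart, in a cluster that holds 64 of the Scgb symbols, 33 of them Scgb2b and 31 Scgb1b, at chr7:31255891-34100837 (GRCm38, the same assembly as mm10). Scgb2b4-ps (ENSMUSG00000101325.1, chr7:31401034-31403176) has 3 exons and a transcript of 340 bases; GENCODE M21 lists it as an unprocessed pseudogene, whereas RefSeq lists it as protein coding. Scgb2b7 (ENSMUSG00000094053.2, chr7:31703779-31705757) is protein coding in both, with a coding transcript of 520 bases. Their transcripts were 86.5% identical over 334 aligned bases, with 45 mismatches.

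Close copies elsewhere in the cluster set how far the counts belong to the named gene. The nearest relative of Scgb2b7 was Scgb2b20, with 98.7% identity over 520 bases and 7 mismatches, followed by Scgb2b12 at 95.1%. Of all 50-base windows of the Scgb2b7 transcript, 55.8% occurred letter for letter in another annotated transcript, and 243 of these 263 shared windows were in Scgb2b20; of 100-base windows, 21.9% were shared, all with Scgb2b20. Scgb2b4-ps was closest to Scgb2b28-ps, at 93.8% over 337 bases, and shared 18.9% of its 50-base windows and 0 of its 241 windows of 100 bases. The read length and the counting rule for reads with several matches were not found in the sources at hand, so counts of Scgb2b7 and Scgb2b20 could be split between them or lost, and the 2 genes are also given summed below. The middle exons show how little separates the copies. They are printed as read from GRCm38, with capitals at the bases that differ from Scgb2b7 in the alignment; Scgb2b20 has 6 such bases, and Scgb2b4-ps has 16 and lacks 3 bases of the Scgb2b7 exon.
Scgb2b7 middle exon, chr7:31705031-31705212, minus strand: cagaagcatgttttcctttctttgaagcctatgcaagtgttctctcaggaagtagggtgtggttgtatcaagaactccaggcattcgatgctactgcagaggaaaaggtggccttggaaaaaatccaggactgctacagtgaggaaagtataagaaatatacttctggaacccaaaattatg
Scgb2b20 middle exon, chr7:33365593-33365774, minus strand: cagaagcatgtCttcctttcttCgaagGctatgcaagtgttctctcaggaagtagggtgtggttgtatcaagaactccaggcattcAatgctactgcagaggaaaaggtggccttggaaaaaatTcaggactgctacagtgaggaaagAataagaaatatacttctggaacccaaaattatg
Scgb2b4-ps middle exon, chr7:31402116-31402294, minus strand: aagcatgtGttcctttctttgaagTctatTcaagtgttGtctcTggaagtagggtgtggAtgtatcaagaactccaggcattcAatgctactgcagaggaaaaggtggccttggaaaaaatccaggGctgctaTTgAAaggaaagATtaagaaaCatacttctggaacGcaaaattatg

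The stretches before the transcription start are shown because both genes were higher with testosterone. They are 250 bases upstream of the RefSeq start (RefSeq, GRCm38.p6), with capitals at TGTTCT, the hexamer that androgen and glucocorticoid response elements share. The hexamer was searched on both strands, its reverse complement being AGAACA.
Scgb2b4-ps upstream, chr7:31403179-31403428, minus strand: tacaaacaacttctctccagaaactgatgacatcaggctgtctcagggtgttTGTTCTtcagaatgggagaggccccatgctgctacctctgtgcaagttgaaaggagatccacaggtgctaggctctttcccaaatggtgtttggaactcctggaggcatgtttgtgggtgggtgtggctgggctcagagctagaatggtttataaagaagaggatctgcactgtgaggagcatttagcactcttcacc
Scgb2b7 upstream, chr7:31705755-31706004, minus strand: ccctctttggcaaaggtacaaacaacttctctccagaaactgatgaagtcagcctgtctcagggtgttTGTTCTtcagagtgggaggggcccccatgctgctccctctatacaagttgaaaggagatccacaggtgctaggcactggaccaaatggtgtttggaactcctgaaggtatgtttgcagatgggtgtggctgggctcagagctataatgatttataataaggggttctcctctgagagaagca
Scgb2b27 upstream, chr7:34013943-34014192, minus strand: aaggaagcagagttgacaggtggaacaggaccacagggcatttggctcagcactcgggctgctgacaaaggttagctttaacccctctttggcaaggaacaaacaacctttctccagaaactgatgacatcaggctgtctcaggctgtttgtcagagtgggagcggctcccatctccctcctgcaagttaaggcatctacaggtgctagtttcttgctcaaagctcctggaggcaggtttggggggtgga
The upstream stretches of Scgb2b4-ps and Scgb2b7 were 88.8% identical over 233 aligned bases, and those of Scgb2b7 and Scgb2b20 were 98.4% identical over 247. TGTTCT began 198 bases before the start of Scgb2b4-ps, at -198, and at -182 in Scgb2b7 and -179 in Scgb2b20, on the gene's strand in each. It was not found in the 250 bases of Scgb2b27. The hexamer occurred in 16 of 20 Scgb2b stretches and in 3 of 12 of the remaining Scgb stretches, against 5284 of 32851 stretches of all genes, or 16.1%. A full inverted repeat, AGAACA followed after any 3 bases by TGTTCT, occurred in 3 stretches of all genes (0.00913%) and in 0 of the 32 Scgb stretches. These matches describe letters in the window and no binding. Close copies such as Scgb2b7 and Scgb2b20 are not independent instances of the hexamer, and its part in the testosterone response was not tested.

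Library totals ran from 8861646 to 21600352 counts. Levels are normalized counts, in which the authors scaled each count by a size factor per library. The androgen-induced genes Spink3, a secreted protease inhibitor, and Fkbp5, a co-chaperone of steroid receptors, were higher in each testosterone library than in any vehicle library. Spink3 averaged 767331 ± 88426 in ARNoC with testosterone and 6862 ± 4424 in ARNoC with vehicle, and 823254 ± 212171 in WT with testosterone and 3688 ± 1475 in WT with vehicle (SD, n = 5 each). Fkbp5 averaged 9529 ± 1145 with testosterone and 1693 ± 164 with vehicle in ARNoC, and 8575 ± 1195 with testosterone and 1567 ± 164 with vehicle in WT (SD, n = 5 each). Pbsn, probasin, averaged 19610 ± 7681 with testosterone and 2285 ± 1315 with vehicle in ARNoC, and 11954 ± 10901 with testosterone and 1432 ± 1134 with vehicle in WT (SD, n = 5 each). The edgeR quasi-likelihood test over all 15261 genes gave no genotype difference under testosterone for these 3 genes, with Benjamini-Hochberg adjusted p of 0.922, 0.508 and 0.610 in that order.

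A pair of libraries stood apart by genes of urothelium, the lining of bladder and urethra: library 5 of ARNoC with vehicle and library 5 of WT with testosterone. This list of 7 genes was chosen after values had been seen. Upk3a, a uroplakin of that lining, reached 193.5 normalized counts in the ARNoC vehicle library and 243.0 in the WT testosterone library, and at most 2.13 in the remaining libraries. Library 5 had the highest level of its group for 4 of the 7 genes in ARNoC with vehicle and for 6 of 7 in WT with testosterone. Their summed level was 13460 in library 5 of ARNoC with vehicle, whose group ranged from 9839 to 13460. It was 12277 in library 5 of WT with testosterone, whose group ranged from 8501 to 12277. The sum is carried by Upk1a, which was high in every library. The main Scgb2b7 results that rest on the ARNoC vehicle library are given with and without it. Leaving out the WT testosterone library is given for Scgb2b4-ps, and for Scgb2b7 only within the ranges of the closing section. Likeness values are given with both libraries included.

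Counts of Scgb2b4-ps came from testosterone libraries alone. In ARNoC with testosterone its normalized counts were 3.19, 10.5, 4.68, 1.20 and 4.75 in libraries 1 to 5, from 3, 9, 4, 2 and 4 counts. It had 0 counts in all 5 libraries of ARNoC with vehicle. In WT with testosterone the values were 43.1, 86.0, 26.4, 108 and 9.98, from 28, 73, 17, 92 and 12 counts, and again 0 counts were present in the 5 libraries of WT with vehicle. Every testosterone library held the transcript and no vehicle library did, and the level differed widely among WT libraries.

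The mean level of Scgb2b4-ps was 4.87 ± 3.48 in ARNoC with testosterone and 54.7 ± 41.1 in WT with testosterone (SD, n = 5 each), a ratio of 0.0890, or 11.2-fold lower in ARNoC. Fewer cells that express a gene and less RNA per cell cannot be told apart in bulk libraries such as these. The genotypes overlapped at 1 point: library 5 of WT, at 9.98, lay under library 2 of ARNoC, at 10.5. That WT library is the one with urothelial genes, and the 4 remaining WT values lie from 26.4 to 108. Leaving out the overlapping library removes the overlap by itself, so the lack of overlap among the rest is no separate result. Without that WT library the ratio of ARNoC to WT was 0.0739. A count of 0 over a vehicle group allows up to 3 counts, which is a mean of 0.475 normalized counts in ARNoC and 0.588 in WT. Against that floor, testosterone levels were at least 10.3-fold higher than vehicle in ARNoC and at least 93.1-fold higher in WT; 12.4% of all genes tested were higher without overlap in ARNoC and 15.2% in WT. These bounds cover counting error only, and since both vehicle groups are at the floor, no genotype ratio can be given for vehicle.

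**Figure D1:**
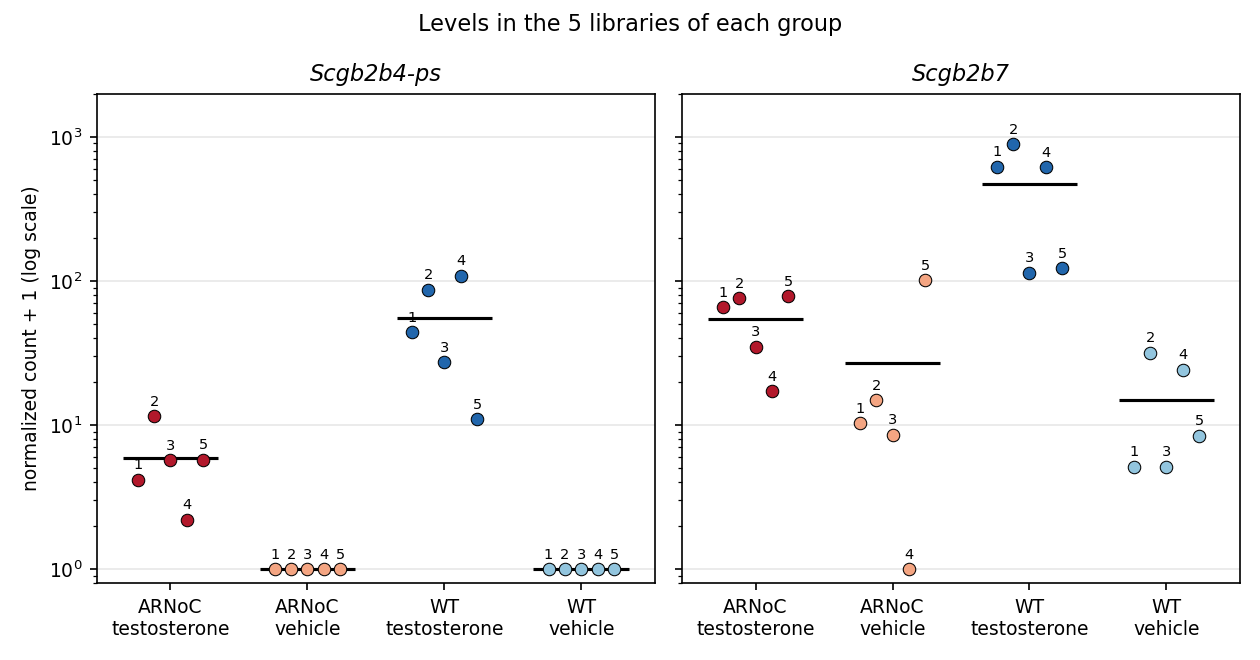
Normalized counts plus 1 on a log axis for Scgb2b4-ps (left) and Scgb2b7 (right) in ARNoC with testosterone, ARNoC with vehicle, WT with testosterone and WT with vehicle. Each point is a library with its number and each line is the mean of 5 libraries. Scgb2b4-ps sits at 0 counts in all 10 vehicle libraries, and library 5 of ARNoC with vehicle, at 100 normalized counts of Scgb2b7, lies above every ARNoC testosterone library.

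Scgb2b7 was present without testosterone in 9 of 10 libraries. In ARNoC with testosterone its normalized counts were 64.8, 74.9, 34.0, 16.2 and 77.2 in libraries 1 to 5. In ARNoC with vehicle they were 9.35, 13.9, 7.60, 0 and 100, so that library 5 exceeded each ARNoC testosterone library while the other four lay under all of them. In WT with testosterone the values were 620.5, 891.0, 113.2, 616.7 and 121.5, with libraries 3 and 5 well under the others. In WT with vehicle they were 4.13, 30.7, 4.14, 23.2 and 7.46, all under each WT testosterone library.

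With testosterone, Scgb2b7 averaged 53.4 ± 27.0 in ARNoC and 472.6 ± 342.8 in WT (SD, n = 5 each), a ratio of 0.113, or 8.85-fold lower in ARNoC. No ARNoC value reached the lowest WT value of 113.2; among all genes tested, 2.33% were lower in ARNoC without overlap in this comparison. With vehicle, Scgb2b7 averaged 26.2 ± 41.6 in ARNoC and 13.9 ± 12.3 in WT, a ratio of 1.88, and the ranges overlapped. Without library 5 of ARNoC the ARNoC vehicle mean was 7.72 ± 5.80 (SD, n = 4) and the ratio turned to 0.554.

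The testosterone response of Scgb2b7, the ratio of group means, was therefore 2.04 in ARNoC with all libraries and 6.92 without library 5 of ARNoC with vehicle. In WT it was 33.9, without overlap between the groups. The ARNoC response divided by the WT response was 0.0601, and 0.204 without that library. From group medians in place of means the responses were 6.94 in ARNoC and 82.7 in WT. No other single library moved the ARNoC response as far.

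Library 5 of ARNoC with vehicle also had the lowest summed fibroblast and matrix genes of its group, 5218 against a group median of 20547, and the highest Spink3, 14436 normalized counts. Its sums were the group's lowest for smooth muscle (10898, median 17926), macrophage and myeloid (1942, median 5719) and endothelial genes (202, median 531). They were the group's highest for ventral lobe secretion (739445, median 436817), basal epithelium (4349, median 2058) and luminal epithelium genes (48590, median 42293). The WT library with urothelial genes had 121.5 normalized counts of Scgb2b7, the lowest value but one of its group. What part these markers have in the result was not tested.

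Summing Scgb2b7 with its near-identical copy Scgb2b20, an alternative added after the data had been seen, gave means of 63.9 in ARNoC with testosterone, 39.0 in ARNoC with vehicle, 526.3 in WT with testosterone and 18.5 in WT with vehicle. The ratio of the sum in ARNoC to that in WT with testosterone was 0.122, close to the 0.113 of Scgb2b7 alone. The testosterone response of the sum was 1.64 in ARNoC and 28.5 in WT. Without library 5 of ARNoC with vehicle, the mean of the sum in that group was 8.72 and the ARNoC response was 7.33. Scgb2b20 made up 16.1% ± 4.14 of the 2 genes' counts in ARNoC with testosterone and 7.59% ± 4.86 in WT with testosterone (SD, n = 5 each).

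Set beside each other in the testosterone libraries, the genes had similar ratios in both genotypes. Scgb2b7 had 7.11 to 20.3 times the counts of Scgb2b4-ps in ARNoC, with a mean of 12.9 ± 5.75, and 4.29 to 14.4 times in WT, with a mean of 9.38 ± 4.28 (SD, n = 5 each). These ranges overlap. Per kilobase of transcript, the mean level of Scgb2b4-ps was 14.3 in ARNoC and 161 in WT with testosterone, and that of Scgb2b7 was 103 in ARNoC and 909 in WT. The lengths used were single transcripts of 340 and 520 bases. All annotated exons of Scgb2b7 together cover 938 bases, over which its values would be lower, and those of Scgb2b4-ps cover 340. With vehicle the per-kilobase level of Scgb2b7 was 50.3 in ARNoC, or 14.8 without library 5, and 26.8 in WT.

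**Figure D2:**
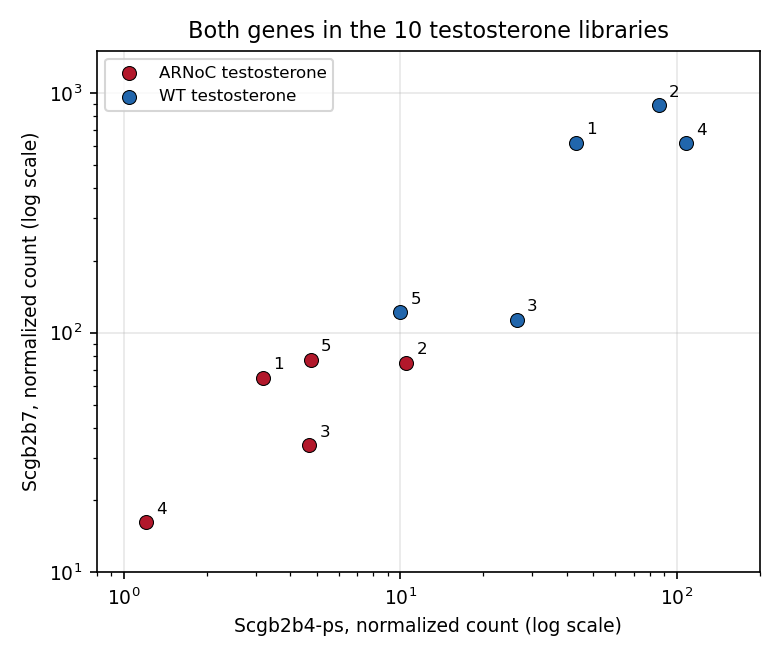
Scgb2b7 against Scgb2b4-ps, both in normalized counts on log axes, in the 5 ARNoC and 5 WT testosterone libraries, numbered within each group. The WT libraries 1, 2 and 4 lie apart at the upper right, and WT libraries 3 and 5 lie next to the ARNoC libraries, with Scgb2b7 at 113.2 and 121.5.

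Scgb2b4-ps passed the minimum of 10 normalized counts in 5 libraries with exactly 5, namely 1 of ARNoC and 4 of WT with testosterone; Scgb2b7 passed with 14 libraries. Of the 69 Scgb symbols, 43 had no count in any library, and among the 67 that are not described above, 14 had 1 to 20 counts over all libraries and 4 passed the minimum. These 4 were Scgb2b27, Scgb2b20, Scgb1b20 and Scgb2a2, and they were tested by edgeR with p-values adjusted over all 15261 genes. Scgb2a2 reached the minimum only in testosterone libraries (2 of ARNoC and 4 of WT). Scgb1b20 reached it in 7 testosterone libraries (2 of ARNoC and 5 of WT) and in 1 vehicle library, library 5 of ARNoC. Scgb2b20 reached it in 2 ARNoC and 3 WT testosterone libraries and in 1 vehicle library of each genotype. Scgb2b27 reached it in 20 libraries. All but Scgb2b27 thus entered the test largely or wholly through the libraries in which they are high. The counts of genes called higher with testosterone therefore describe the 4 genes and support nothing about the family.

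In WT, testosterone raised 3 of these 4 genes, where 20.4% of all genes tested were called higher and 39.2% were called in either direction. Scgb1b20, an alpha-subunit gene beside Scgb2b20, averaged 38.8 ± 43.6 normalized counts with testosterone and 0.439 ± 0.982 with vehicle in WT, a log2 change of 6.24 ± 1.58 (SE; edgeR adjusted p = 0.00373). Scgb2a2, which belongs to the mammaglobin branch and lies on chromosome 19, averaged 15.0 ± 5.23 with testosterone and 1.22 ± 1.23 with vehicle, a log2 change of 3.56 ± 0.61 (SE; edgeR adjusted p = 0.000104). Scgb2b20 averaged 53.7 ± 59.0 with testosterone and 4.55 ± 5.58 with vehicle, a log2 change of 3.57 ± 1.20 (SE; edgeR adjusted p = 0.0237). The Scgb2b20 call was lost without WT vehicle library 1, 3 or 4 or WT testosterone library 2, with edgeR adjusted p of 0.0521 to 0.0928. Scgb2b27, the most abundant Scgb gene with vehicle, averaged 270 ± 153 with testosterone and 156 ± 98.2 with vehicle, a log2 change of 0.80 ± 0.59 that did not pass (SE; edgeR adjusted p = 0.301).

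In ARNoC, 1 of the 4 genes rose, where 19.4% of all genes tested were called higher and 36.2% in either direction. Scgb2a2 averaged 6.95 ± 3.66 normalized counts with testosterone and 0.288 ± 0.643 with vehicle, a log2 change of 3.99 ± 0.75 (SE; edgeR adjusted p = 0.000299). Scgb1b20 and Scgb2b20 had log2 changes of -0.36 and -0.29 that did not pass, with library 5 of the vehicle group at 53.7 and 60.2 normalized counts and the 4 remaining vehicle libraries at no more than 2.53. Without that library, Scgb1b20 had a log2 change of 4.07 (edgeR adjusted p = 0.0112) and Scgb2b27 of 1.60 (edgeR adjusted p = 0.0466), so that 3 of the 4 were called. The log2 change of Scgb2b20 then turned to 3.06 and did not pass (edgeR adjusted p = 0.0553). The share of all genes called without that library was not taken, so these 3 calls support nothing about the family. Scgb2b24, chosen after its values were seen, had 189.8 normalized counts in the same vehicle library and at most 1.44 in the others of its group, and it had 1.66 in the WT testosterone library with urothelial genes.

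**Figure D3:**
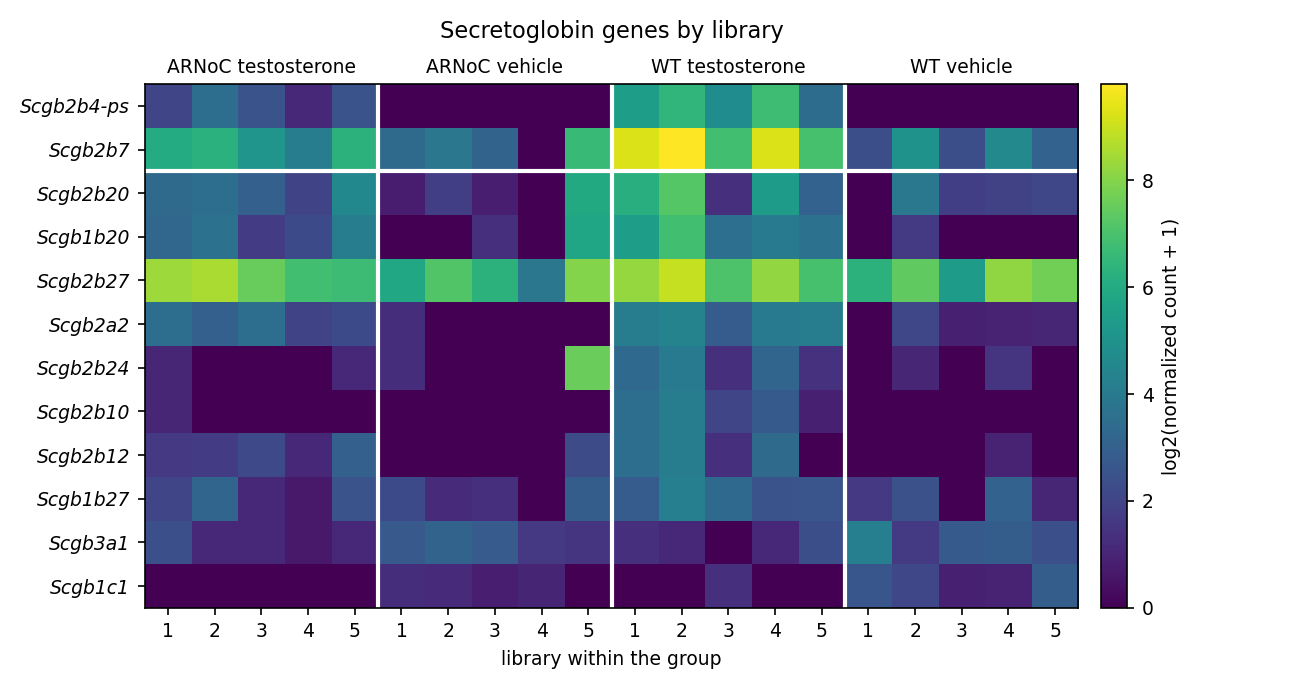
Log2 of the normalized count plus 1 for the 2 genes described (above the white line) and 10 further Scgb genes, by library within ARNoC with testosterone, ARNoC with vehicle, WT with testosterone and WT with vehicle. Library 5 of ARNoC with vehicle is high for Scgb2b7 (100), Scgb2b20 (60.2), Scgb1b20 (53.7) and Scgb2b24 (189.8), and has 0 counts of Scgb2b4-ps.

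Between genotypes, 0 of the 4 tested genes differed with testosterone (1.69% of all genes tested were called), 0 with vehicle (0.321%) and 0 in the interaction, where edgeR called 0 of all 15261 genes (0%), DESeq2 called 29 and limma-trend 1. At an unadjusted edgeR p under 0.05 there were 2, 1 and 2 of the 4 in that order, beside 2237, 1143 and 1307 of all 15261 genes. Without library 5 of ARNoC with vehicle there were 0 of the 4 with vehicle and 0 in the interaction. DESeq2 and limma-trend also called 0 of these 4 genes in each. With testosterone, the log2 difference of ARNoC against WT was -2.38 ± 1.10 for Scgb2b20 (SE; edgeR adjusted p = 0.322), -2.20 ± 1.07 for Scgb1b20 (adjusted p = 0.347), -1.15 ± 0.48 for Scgb2a2 (adjusted p = 0.267) and -0.28 ± 0.59 for Scgb2b27 (adjusted p = 0.861). All 4 estimates were below 0, and none passed. The described genes had differences of -3.49 for Scgb2b4-ps and -3.15 for Scgb2b7 as log2 ratios of group means. No test of whether they differ from their relatives was made.

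Scgb2b7 held a larger share of the family's counts in WT than in ARNoC when testosterone was given. The share is made of the gene's own counts, so it restates the difference used in the choice and is no separate result. In ARNoC with testosterone Scgb2b7 took 17.0% ± 7.91 of each library's summed Scgb counts and Scgb2b27 took 68.2% ± 14.8 (SD, n = 5). In WT with testosterone Scgb2b7 took 46.7% ± 8.34 and Scgb2b27 took 32.3% ± 7.95 (SD, n = 5). The Scgb2b7 share lay from 11.3 to 31.0% in ARNoC and from 36.1 to 54.5% in WT. With vehicle Scgb2b7 took 8.54% ± 5.55 in ARNoC and 6.98% ± 4.05 in WT. Without library 5 the ARNoC vehicle share was 6.95% ± 4.93 (SD, n = 4). Per kilobase of transcript with testosterone, Scgb2b27 averaged 315 normalized counts in ARNoC and 384 in WT, so it stood above Scgb2b7 in ARNoC (103) and under it in WT (909). The Scgb2b27 transcript used has 702 bases, while all its annotated exons together cover 1571.

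**Figure D4:**
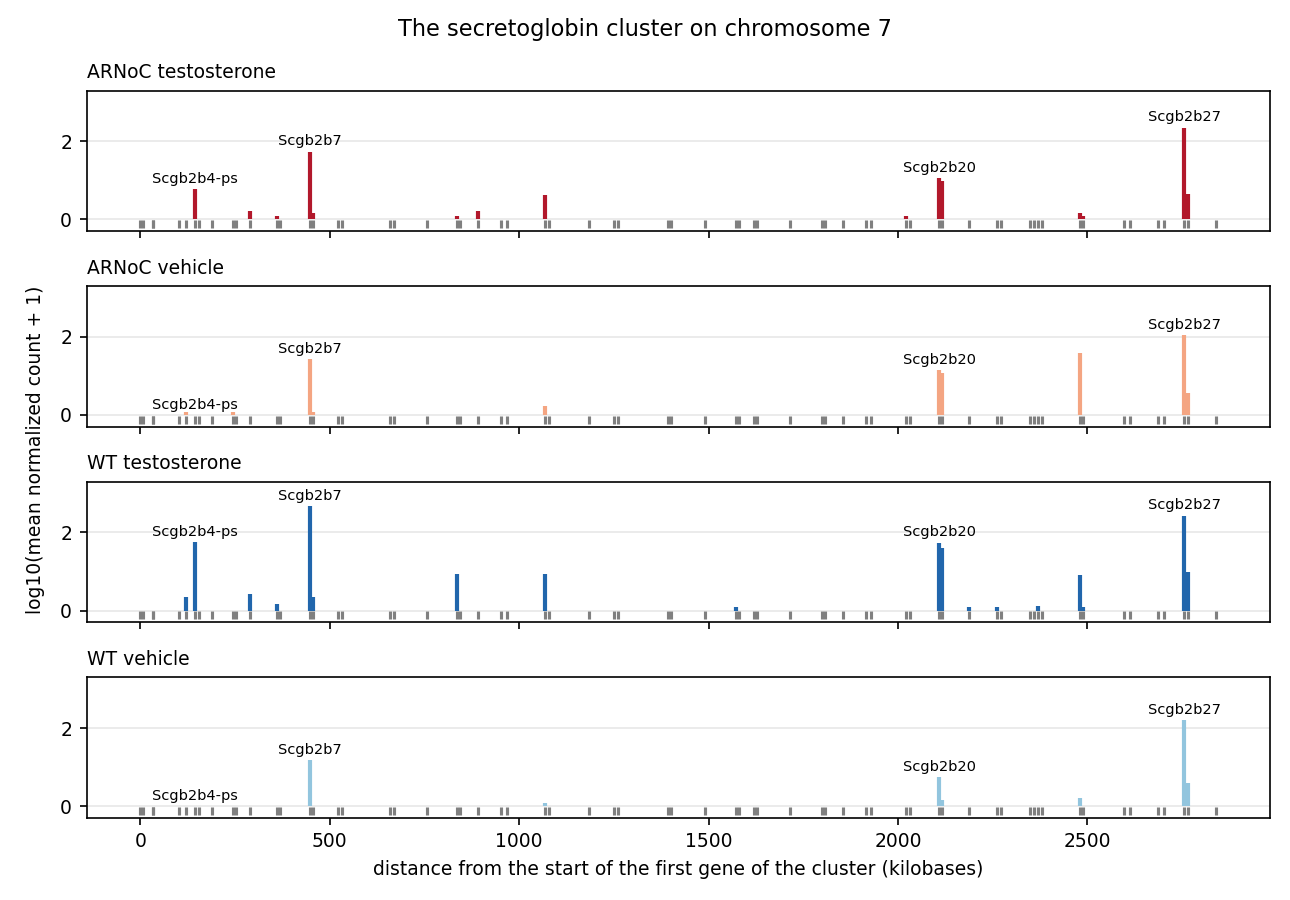
Mean level, as log10 of the normalized count plus 1, of each Scgb gene along the chromosome 7 cluster, by distance from the start of its first gene in kilobases, for the 4 groups. Grey ticks mark all 64 genes. Most ticks carry no bar, and with testosterone in WT the bars of Scgb2b7 and Scgb2b27 are the highest.

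Genes next to both had few counts or none. Of the 3 nearest annotated genes on each side of Scgb2b4-ps, 5 had 0 counts in all libraries and Scgb1b3, an alpha-subunit gene, had 1 count in ARNoC with vehicle and 5 in WT with testosterone. Beside Scgb2b7, Scgb1b7, the alpha-subunit gene that starts 6908 bases away on the opposite strand, had 2 counts in ARNoC with testosterone, 1 in ARNoC with vehicle, 6 in WT with testosterone and 0 in WT with vehicle. Gm4373, a processed pseudogene, had 1 count each in ARNoC with vehicle and WT with testosterone, and the 4 remaining neighbours had 0. The counts of both genes were thus bounded by genes with at most 9 counts over all libraries.

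Likeness was measured as Pearson's r of log2(normalized count + 1) and is a description, since libraries are shared and treatment moves many genes together. Over all 20 libraries, the genes most like Scgb2b4-ps among 15260 were Copa (0.953), Sgpp1 (0.951), Copg1 (0.949), Ggta1 (0.939) and Sec31a (0.935). Copa and Copg1 encode parts of the COPI vesicle coat and Sec31a a part of the COPII coat, Sgpp1 is a sphingosine-1-phosphate phosphatase, and Ggta1 adds galactose to glycans. Those most like Scgb2b7 were Tbx3os1 (0.902), Fam173b (0.901), Sbp (0.900), Copa (0.899) and Sbpl (0.895), where Tbx3os1 is an RNA antisense to Tbx3, Sbp is the spermine-binding protein secreted by the ventral lobe and Sbpl its homologue. The 2 genes had r = 0.860 with each other, which was rank 182 for Scgb2b4-ps and rank 22 for Scgb2b7. Scgb2b7 had r = 0.869 with Scgb2b20, at rank 16. Scgb2b4-ps had 0 counts in every vehicle library, so treatment enters its r. Reads that match both Scgb2b7 and Scgb2b20 may enter the r of that pair, which was not tested.

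Over the 10 testosterone libraries, where treatment does not vary, Scgb2b4-ps was most like Tfcp2l1 (0.960), Ggta1 (0.948), Il13ra1 (0.947), Scgb2b7 (0.943) and Golga2 (0.937), among 11461 genes averaging 50 normalized counts or more there. Tfcp2l1 is a transcription factor of epithelia, Il13ra1 a subunit of interleukin receptors and Golga2 a golgin. Scgb2b7 was most like Cyp2b10 (0.961), a cytochrome P450, then Tfcp2l1 (0.932), Qsox1 (0.928), a secreted sulfhydryl oxidase, Copa (0.927) and Papss1 (0.923), which makes the sulfate donor. Ggta1 averaged 710 normalized counts in ARNoC and 1563 in WT with testosterone, and Cyp2b10 averaged 464 in ARNoC and 930 in WT. These 10 points hold both genotypes, so the difference between genotypes enters every r.

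Markers of gland regions are set beside the 2 genes here. The summed ventral lobe secretion genes (4 of 4 measured: Spink3, Sbp, Sbpl and Mme) ranged from 1723195 to 2197148 in ARNoC with testosterone and from 2228322 to 3581398 in WT with testosterone. Sbp had a log2 difference of ARNoC against WT with testosterone of -0.70 ± 0.19 that did not pass (SE, edgeR adjusted p = 0.0700). Sbpl and Spink3 did not pass either (edgeR adjusted p = 0.127 and 0.922). The summed dorsolateral lobe genes (2 of 2: Pbsn and Msmb, which encodes beta-microseminoprotein) ranged from 39390 to 81552 in ARNoC with testosterone and from 10871 to 61614 in WT with testosterone. The dorsolateral ranges overlapped, and neither Pbsn nor Msmb passed between genotypes with testosterone (edgeR adjusted p = 0.610 and 0.254). In WT libraries 1 to 5 with testosterone the dorsolateral sums were 10871, 40850, 19667, 20167 and 61614, beside Scgb2b7 levels of 620.5, 891.0, 113.2, 616.7 and 121.5. Over the 10 testosterone libraries, r with Pbsn was -0.470 for Scgb2b7 and -0.546 for Scgb2b4-ps. With Msmb it was -0.569 for Scgb2b7 and -0.644 for Scgb2b4-ps. Both genotypes enter these r values. Luminal epithelium genes (6 of 6) summed to 41725 to 54458 in ARNoC with testosterone and 39291 to 48260 in WT with testosterone. Smooth muscle genes (6 of 6) had a median sum of 38839 in ARNoC (18235 to 43351) and 21590 in WT (11023 to 38371) with testosterone. Fibroblast and matrix genes (8 of 8) had a median sum of 14525 in ARNoC (8206 to 22521) and 10548 in WT (4197 to 16384) with testosterone. Tgm4, which encodes a transglutaminase of the anterior lobe and makes up nearly all of the anterior lobe sum, reached 4670 normalized counts in ARNoC with testosterone, in library 2, and at most 160 in WT with testosterone. The part of these markers in the lower levels of Scgb2b4-ps and Scgb2b7 in ARNoC was not tested.

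Markers of glands in which Scgb2b genes are known to be abundant were measured in part. Of 7 salivary and lacrimal markers, 5 were in the count table, and Smr3a, Bpifa2 and Klk1b1 had 0 counts in all 4 groups. Only 2 of the 7 had normalized counts. Smr2 also had 0 counts in both ARNoC groups, so the ARNoC sums come from a single gene. The list summed to 46.3 to 112 normalized counts in ARNoC with testosterone, 66.1 to 137 in ARNoC with vehicle, 29.5 to 131 in WT with testosterone and 56.0 to 195 in WT with vehicle, and its part in the levels of Scgb2b4-ps and Scgb2b7 was not tested. Seminal vesicle genes, 8 of 8 in the count table, summed to at most 50.7 in any library, with Svs3a at 0 in all 4 groups. Macrophage and myeloid genes, 7 of 8 measured, summed to 1918 to 3469 in ARNoC with testosterone and 1041 to 2481 in WT with testosterone, and their part in the result was not tested.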

How the data were processed

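Total RNA of ventral prostates was sequenced in 20 libraries. The authors' deposited counts are whole reads per gene symbol for 43472 genes; the tools listed in the submitters' processing notes, without their order, are HISAT2, HTSeq, DESeq2, FastQC 0.11.7 and SAMtools 1.5, with mm10 as the build. Annotation, strand setting and read length were not found in the sources at hand. The deposited signal values are normalized counts for 23221 genes, and the deposited ratio values are size factors; value times size factor returned the count within 4.19e-09. Replicates of a group differed by more than sampling noise (chi-square per degree of freedom 7.97 to 42.7 over 40 pairs).

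Scgb2b4-ps and Scgb2b7, and the gene lists, were chosen with earlier results of these data known. The 15261 genes that reached 10 normalized counts in 5 or more libraries were fitted with edgeR 4.0.16 in R 4.3.3 (TMM, 1 mean per group, quasi-likelihood F-test, Benjamini-Hochberg adjustment at 0.05), tested on simulated data. DESeq2 1.42.0, limma 3.58.1, other scalings and filters, and each library left out were alternatives. Bounds against 0 counts use 3 counts over a group. The rule for names took the 2 genes, other Scgb genes past the minimum, the 5 most alike genes, the 3 neighbours on each side, and Spink3, Fkbp5 and Pbsn. Positions and exon sequences came from GENCODE M21 and GRCm38, and upstream sequences from RefSeq tables.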

Additional observations from a re-analysis of the deposited data

Results flagged for a closer look

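Among 36 combinations of a gene and a group, 7 had a library whose gap to its nearest neighbour, as a share of the group's range, exceeded 0.71, the 95% critical value of Dixon's test for 5 samples. That value assumes normally distributed levels, which low counts with many zeros are not, so the flags are a description without a chance rate. A group with counts in a single library scores 1 whatever their number. In ARNoC with vehicle, library 5 was flagged for Scgb2b7 (0.861), Scgb1b20 (0.972), Scgb2b20 (0.958) and Spink3 (0.711), and library 1 for Scgb2a2 (1, with 2 counts against 0 in the rest). In WT with vehicle, library 2 was flagged for Scgb2b20 (0.776) and for Scgb1b20 (1, with 2 counts against 0 in the rest). The flags of library 5 fall on the library that also carries urothelial genes, and their part in it was not tested.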

How the results depend on the processing

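Leaving out each library in turn moved the ratio of ARNoC to WT with testosterone from 0.0631 to 0.118 for Scgb2b4-ps and from 0.0950 to 0.145 for Scgb2b7. The testosterone response ran from 7.28 to 12.2 in ARNoC and 70.4 to 112 in WT for Scgb2b4-ps (bounds), and from 1.63 to 6.92 in ARNoC and 26.4 to 48.6 in WT for Scgb2b7. With vehicle the Scgb2b7 ratio of ARNoC to WT ran from 0.554 to 2.69, and the ratio of responses from 0.0420 to 0.204. The values 6.92, 0.554 (a turned direction) and 0.204 come from leaving out library 5 of ARNoC with vehicle. Called Scgb genes other than these numbered 2 to 3 in WT and 1 to 3 in ARNoC, and 0 in each genotype comparison and the interaction. The log2 change of Scgb1b20 in ARNoC ran from -0.75 to 4.07, and that of Scgb2b20 from -0.79 to 3.06 without a call, both turned by leaving out that library. In limma-trend both were above 0 in ARNoC, without a call (1.58 and 1.43 with a pseudocount of 1).

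Of 79 further values, 76 counted as the same, and 3 moved, all of them counts of called genes that are given next. A ratio counted as the same when its direction held and its log2 shifted by less than the SD of log2 levels between libraries. That SD is wide here, so the label does not mean that a ratio kept its size. With no filter on low counts, 7 of 24 Scgb genes were called in WT (5 higher, 2 lower) and 2 in ARNoC (Scgb2a2 higher, Scgb2b24 lower). With edgeR's own filter, 0 of 3 were called in ARNoC, Scgb2a2 not being tested. Shares of all genes called under these filters were not taken, so these counts support nothing about the family. In the main fit, 39.2% of all genes tested were called in either direction in WT and 36.2% in ARNoC. With group medians the response of Scgb2b7 was 82.7 in WT and 6.94 in ARNoC, against 33.9 and 2.04 from means, and both counted as the same. In limma-trend with a pseudocount of 1, Scgb2b20 was not called in WT (log2 change 2.70, adjusted p = 0.054). Scaling by total counts moved the median of all genes by -0.42 (log2) for testosterone in WT and by -0.35 in ARNoC. Counts of 0 leave no fitted ratio for Scgb2b4-ps with vehicle, so edgeR's ratio was used for it under testosterone only. No paired analysis was possible because library codes differ throughout and tie no libraries together.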
